A study of Mus musculus with 12 samples.

Results

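The genes described are 10 mouse genes of cell-autonomous immunity and antigen processing, measured in HT22 cells with and without Ncoa4 siRNA and iron chelation. The genes were taken by name from the deposited tables (Igtp, Irgm1, Irgm2, Gbp2, Gbp3, Tap1, Tapbp, Psmb8, Psmb9 and B2m), and all 10 were found among 24343 genes. They had been chosen by their FPKM differences between these groups in an earlier look at the same libraries, so their levels, their differences and any count of calls among them are a description and not independent evidence. HT22 is an immortalized mouse hippocampal cell line, and the study asked what loss of NCOA4, the receptor that delivers ferritin to the lysosome for iron release, does to these cells when iron is scarce. RNA-seq was made from 12 cultures, 3 biological replicates in each of 4 groups. The siControl cells received a scrambled siRNA and the siNCOA4 cells an siRNA against Ncoa4, both delivered with liposomes, so that the controls also carry an siRNA and the transfection reagent. In the siControl+DFO and siNCOA4+DFO groups the same transfections were combined with the iron chelator desferrioxamine (DFO) at 100 µM for 24 h. Untransfected cells were not analysed here, so each difference is one between transfected cultures.

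Igtp, Irgm1 and Irgm2 belong to the immunity-related GTPases (IRG), and Gbp2 and Gbp3 to the guanylate-binding proteins (GBP). Both are families of interferon-induced GTPases that act on membranes, for example on the vacuoles of intracellular parasites. The other genes make peptides visible to T cells: Psmb8 and Psmb9 are catalytic subunits of the immunoproteasome, Tap1 is 1 subunit of the pump that carries peptides into the endoplasmic reticulum, Tapbp (tapasin) helps class I molecules to load them, and B2m is the light chain of class I molecules. In many cell types these genes respond to interferon gamma, with GAS and ISRE elements as the promoter sequences that carry the signal.

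The genes fall into few loci. Igtp (chr11:58199556-58207591, plus strand) and Irgm2 (chr11:58199618-58222782, plus strand) have overlapping gene models in GRCm38, while their RefSeq starts lie 15.4 kb apart. Irgm1 lies elsewhere on chromosome 11 (chr11:48861968-48871683, minus strand). Gbp2 (chr3:142620602-142638008) and Gbp3 (chr3:142560026-142573209) are neighbours on the plus strand of chromosome 3. Psmb9 (chr17:34181987-34187764, minus strand), Tap1 (chr17:34187553-34197225, plus strand) and Psmb8 (chr17:34197721-34201454, plus strand) follow each other in the major histocompatibility complex, and Tapbp lies near them (chr17:33915899-33929292, plus strand). B2m is on chromosome 2 (chr2:122147686-122153083, plus strand).

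The promoter windows of RefSeq (GRCm38.p6), 250 bases before and 50 bases after each annotated start, were found for all 10 genes, and 5 of them are shown: those of Igtp and Irgm2, which hold both motifs searched for, those of Irgm1 and Gbp3, which hold overlapping matches to 1 of them, and that of Tap1, which holds none and lies head to head with Psmb9. The windows span chr11:58199306-58199605 (plus strand) for Igtp, chr11:58214727-58215026 (plus strand) for Irgm2, chr11:48871371-48871670 (minus strand) for Irgm1, chr3:142559794-142560093 (plus strand) for the first of 2 Gbp3 windows, and chr17:34187306-34187605 (plus strand) for Tap1, a window that also holds the start of Psmb9 on the other strand. Capitals mark matches on either strand to GAS (TTCNNNGAA) or ISRE (GAAANNGAAA, or TTTCNNTTTC when read on the other strand), and overlapping matches run together.

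Igtp: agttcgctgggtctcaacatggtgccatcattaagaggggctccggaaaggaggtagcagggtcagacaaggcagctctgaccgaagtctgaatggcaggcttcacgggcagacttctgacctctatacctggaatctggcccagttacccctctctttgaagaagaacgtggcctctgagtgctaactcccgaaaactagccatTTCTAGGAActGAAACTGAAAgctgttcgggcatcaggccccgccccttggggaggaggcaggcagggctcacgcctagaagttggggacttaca

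Irgm2: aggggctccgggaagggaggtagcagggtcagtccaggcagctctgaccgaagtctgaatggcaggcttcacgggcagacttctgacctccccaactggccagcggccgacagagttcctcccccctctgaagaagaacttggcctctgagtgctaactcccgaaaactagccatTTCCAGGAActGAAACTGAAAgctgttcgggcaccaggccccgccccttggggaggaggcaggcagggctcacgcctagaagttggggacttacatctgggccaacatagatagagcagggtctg

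Irgm1: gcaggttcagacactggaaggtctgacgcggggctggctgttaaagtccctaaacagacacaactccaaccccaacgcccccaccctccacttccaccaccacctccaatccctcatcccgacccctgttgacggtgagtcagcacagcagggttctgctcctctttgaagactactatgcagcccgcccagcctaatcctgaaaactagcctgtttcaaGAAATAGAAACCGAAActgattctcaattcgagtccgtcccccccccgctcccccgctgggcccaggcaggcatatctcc

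Gbp3: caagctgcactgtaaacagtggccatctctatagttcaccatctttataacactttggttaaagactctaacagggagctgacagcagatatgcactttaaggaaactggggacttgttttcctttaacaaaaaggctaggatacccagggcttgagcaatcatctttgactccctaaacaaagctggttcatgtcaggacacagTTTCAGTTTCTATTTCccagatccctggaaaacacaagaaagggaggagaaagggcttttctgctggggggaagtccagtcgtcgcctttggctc

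Tap1: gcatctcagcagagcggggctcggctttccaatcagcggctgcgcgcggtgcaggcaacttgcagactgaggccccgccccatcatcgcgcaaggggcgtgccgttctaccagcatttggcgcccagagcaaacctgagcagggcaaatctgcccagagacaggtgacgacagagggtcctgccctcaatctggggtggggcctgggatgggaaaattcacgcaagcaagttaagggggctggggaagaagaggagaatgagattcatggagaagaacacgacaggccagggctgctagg

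The Igtp and Irgm2 windows each held 1 GAS match followed, 2 bases on, by 1 ISRE match. With these matches laid over each other and no gaps allowed, 184 of 270 bases of the 2 windows were identical (68.1%). That share understates their likeness, because a long stretch further upstream is identical in both printed sequences but sits at another offset. Irgm1 and Gbp3 each held 2 overlapping ISRE matches and no GAS match, and the Tap1 window held neither. Among the windows not printed, Gbp2 and B2m held 1 ISRE match each and Psmb8 1 GAS match, while Tapbp and Psmb9 held none. In all, 3 of the 10 genes had a GAS match, 6 an ISRE match and 2 both. Over 32851 promoter windows of the same length, 8.3% held a GAS match, 3.44% an ISRE match and 0.454% both. A match is a description of the letters, and binding was not measured.

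**Figure D1:**
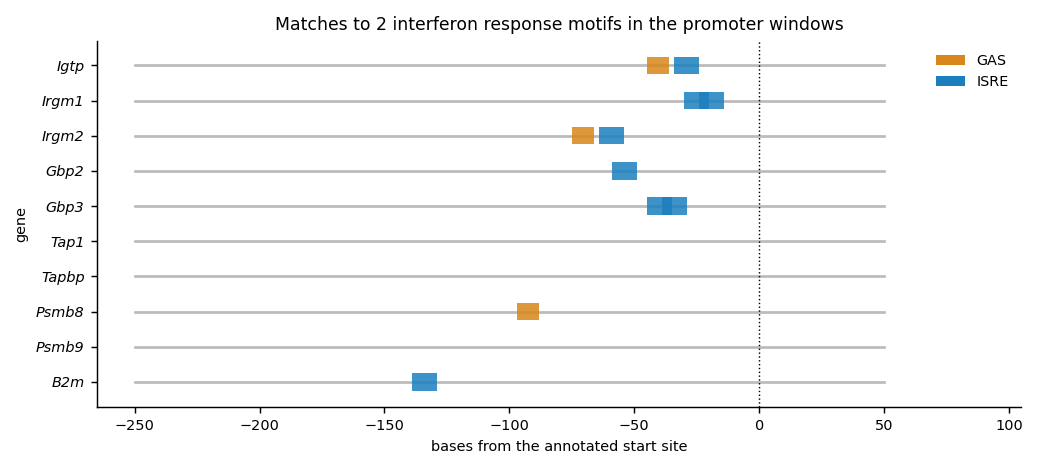
Positions of GAS (orange) and ISRE (blue) matches in the 300-base promoter window of each gene, in bases from the annotated start (dotted line), with the first window shown for Gbp3. Igtp and Irgm2 hold both motifs side by side, and Tap1, Tapbp and Psmb9 hold neither.

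The deposited values are FPKM, by definition fragments scaled to transcript length and to the mapped fragments of the library, which allow levels to be compared between genes. How the libraries were scaled to each other is not given in the sources used here. The FPKM of a library summed to 615784 to 627826 in siControl and 565558 to 599095 in siNCOA4. With DFO the sums were 676428 to 723077 in siControl+DFO and 691486 to 737313 in siNCOA4+DFO. Factors of median-of-ratios scaling ran from 1.00 to 1.01. Ncoa4 itself lay between 6.02 and 8.70 FPKM in the 6 libraries with control siRNA and between 0.770 and 1.57 FPKM in the 6 with Ncoa4 siRNA, as the labels state. FPKM carries no read number. From the steps between low values, the relative depth of the deepest and the shallowest library differed by 1.52-fold, and the lowest depth was in siNCOA4+DFO replicate 3. Depth was not even over the groups. All siNCOA4 libraries, at 1.26 to 1.41 relative to siControl replicate 1, were deeper than all others, at 0.928 to 1.25, some only narrowly. The part of depth in low values and zeros was not tested. A value of 0 need not mean absence, since 46 genes were listed at 0 in 1 library while reaching at least 5 FPKM in both others of its group. The study describes HT22 as a neuronal line, but defining markers of neurons were largely missing. Of 8 neuronal markers, Tubb3 alone reached 0.5 FPKM in any library. Map2, Rbfox3, Snap25 and Nefm were listed at 0 in every siControl library. All 4 fibroblast markers (Col1a1, Col1a2, Pdgfra, Dcn) were present, and their summed level was 1282 to 1574 FPKM in siControl, 728 to 930 in siNCOA4, 347 to 464 in siControl+DFO and 394 to 481 in siNCOA4+DFO. The 8 markers of microglia and other immune cells, mostly Cd68, summed to 1.07 to 2.42 FPKM in siControl, 1.75 to 2.40 in siNCOA4, 2.07 to 3.36 in siControl+DFO and 2.45 to 4.36 in siNCOA4+DFO, with Tyrobp listed at 0 in all 12 libraries. The 4 astrocyte markers, mostly Slc1a3, summed to 36.1 to 45.6, 21.7 to 26.2, 2.64 to 4.76 and 4.55 to 12.7 FPKM in the same order of groups. The part of these markers in the values below was not tested, and in bulk RNA a change in the number of expressing cells and in RNA per cell cannot be told apart.

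In siControl cells the levels of the 10 genes ran from B2m at 179 ± 19.4 FPKM (SD, n = 3) through Tapbp at 65.7 ± 3.06, Irgm1 at 13.1 ± 0.361, Tap1 at 5.17 ± 0.588, Gbp2 at 3.95 ± 0.480, Igtp at 2.45 ± 0.208 and Irgm2 at 1.45 ± 0.189 FPKM down to Psmb9, Gbp3 and Psmb8. No 2 neighbours in that order overlapped in their library values. In siNCOA4+DFO cells Gbp3, at 13.3 ± 3.34 FPKM, stood above Gbp2, at 8.81 ± 1.53 FPKM, and the libraries of Irgm1 and Tap1, of Gbp3 and Gbp2, of Gbp2 and Igtp, and of Psmb9 and Psmb8 overlapped.

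**Figure D2:**
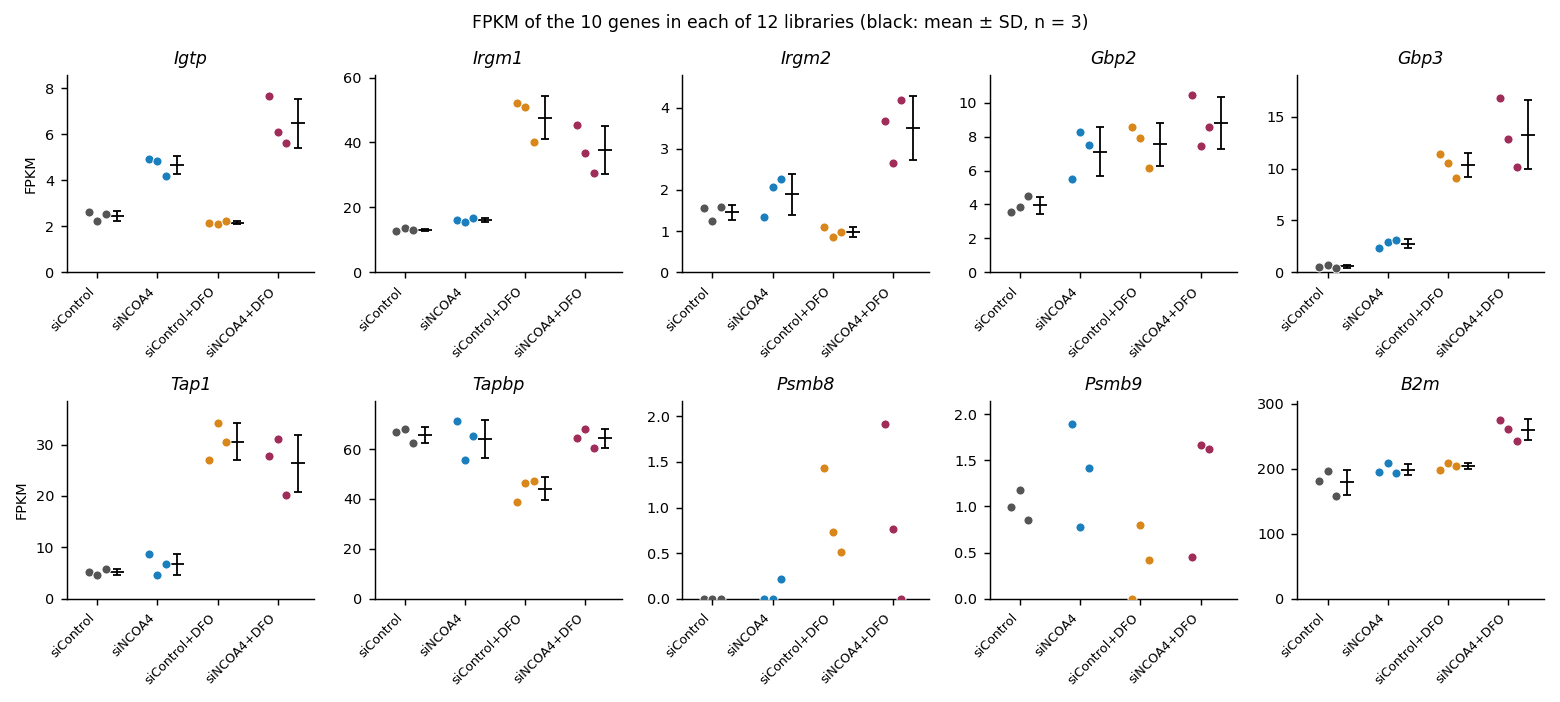
FPKM (vertical axis, a separate scale for each gene) of the 10 genes in each library of the 4 groups, with group mean and SD (n = 3) in black except for Psmb8 and Psmb9, which have libraries listed at 0. Igtp and Irgm2 are highest in siNCOA4+DFO, while Irgm1 and Tap1 are high in both DFO groups.

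Among the IRG genes, Igtp and Irgm2 were highest where both treatments were combined, and Irgm1 was high wherever DFO was present. These 3 genes encode the regulatory IRG proteins, which are thought to hold other IRG proteins inactive on the cell's own membranes. Igtp was at 2.61, 2.22 and 2.53 FPKM in siControl, 4.93, 4.82 and 4.20 in siNCOA4, 2.14, 2.09 and 2.22 in siControl+DFO, and 7.68, 6.09 and 5.64 in siNCOA4+DFO. All 6 libraries with Ncoa4 siRNA lay above all 6 with control siRNA, the siNCOA4+DFO libraries lay above those of siNCOA4, and siControl+DFO overlapped siControl. On the log2(FPKM + 0.1) scale, the difference in Igtp between siNCOA4 and siControl was 0.90 ± 0.16 (SE), that between siNCOA4+DFO and siControl+DFO 1.53 ± 0.16, and that between siControl+DFO and siControl -0.18 ± 0.16.

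Irgm2 was at 1.55, 1.24 and 1.57 FPKM in siControl, 1.34, 2.08 and 2.27 in siNCOA4, 1.10, 0.855 and 0.989 in siControl+DFO, and 3.67, 2.66 and 4.18 in siNCOA4+DFO. Every siControl+DFO library lay below every siControl library and every siNCOA4+DFO library above every siNCOA4 library, while siNCOA4 overlapped siControl. The log2 difference of Irgm2 with DFO was -0.52 ± 0.26 (SE) in control siRNA cells and 0.86 ± 0.26 in Ncoa4 siRNA cells. Between the 2 DFO groups it was 1.72 ± 0.26, the highest of the 8 genes with no library at 0. Igtp and Irgm2 shared 7.8% and 4.78% of their 75-base transcript windows with other genes, mainly with each other, so part of their reads could be assigned to either.

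Irgm1 was at 12.9, 13.5 and 12.9 FPKM in siControl, 16.2, 15.4 and 16.8 in siNCOA4, 52.2, 50.9 and 40.0 in siControl+DFO, and 45.3, 36.9 and 30.7 in siNCOA4+DFO. The siNCOA4 libraries lay narrowly above siControl, both DFO groups lay above both groups without DFO, and the 2 DFO groups overlapped. The log2 difference of Irgm1 with DFO was 1.85 ± 0.13 (SE) in control siRNA cells and 1.20 ± 0.13 in Ncoa4 siRNA cells, and with Ncoa4 siRNA alone it was 0.30 ± 0.13. None of its transcript windows was shared with another gene. Irgm1, Igtp and Irgm2, which all had an ISRE match in the sequences above, differed in their order over the groups: siControl+DFO was the highest group for Irgm1 by its mean and the lowest for the other two.

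Of the GBP genes, Gbp3 had a wide range over the groups and Gbp2 a narrow one. Gbp3 was at 0.532, 0.742 and 0.455 FPKM in siControl, 2.31, 2.95 and 3.07 in siNCOA4, 11.4, 10.6 and 9.04 in siControl+DFO, and 16.8, 12.8 and 10.2 in siNCOA4+DFO. The first 3 groups were separate in rising order, and the 2 DFO groups overlapped. Its log2 difference was 2.10 ± 0.22 (SE) with Ncoa4 siRNA alone, 3.96 ± 0.22 with DFO alone and 4.30 ± 0.22 with both. The difference of differences of Gbp3 was -1.77 ± 0.31 (SE). These values depend on the pseudocount because siControl is low: with a pseudocount of 1 in place of 0.1, they were 1.26, 2.85 and 3.16, with -0.95 for the difference of differences.

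Gbp2 was at 3.54, 3.83 and 4.47 FPKM in siControl, 5.52, 8.29 and 7.53 in siNCOA4, 8.54, 7.94 and 6.13 in siControl+DFO, and 10.5, 7.43 and 8.55 in siNCOA4+DFO. All 9 treated libraries lay above the 3 of siControl, and the 3 treated groups overlapped each other. The log2 difference of Gbp2 from siControl was 0.82 ± 0.19 (SE) with Ncoa4 siRNA, 0.91 ± 0.19 with DFO and 1.13 ± 0.19 with both. Gbp2 and Gbp3 had under 3% of their transcript windows in common with any other gene (0.95% with Gbp2b and 2.06% with Gbp7).

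The peptide transport and loading genes Tap1 and Tapbp differed in direction with DFO. Tap1 was at 5.13, 4.60 and 5.78 FPKM in siControl, 8.73, 4.61 and 6.79 in siNCOA4, 26.9, 34.2 and 30.6 in siControl+DFO, and 27.9, 31.0 and 20.3 in siNCOA4+DFO. The 6 DFO libraries all lay above 20 FPKM and the 6 others all under 9 FPKM, and within each of these 2 sets the siRNA groups overlapped. The log2 difference of Tap1 with DFO was 2.54 ± 0.21 (SE) in control siRNA cells and 1.98 ± 0.21 in Ncoa4 siRNA cells.

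Tapbp was at 66.7, 68.1 and 62.2 FPKM in siControl, 71.1, 55.8 and 65.3 in siNCOA4, 38.7, 46.2 and 47.3 in siControl+DFO, and 64.6, 68.0 and 60.2 in siNCOA4+DFO. The siControl+DFO libraries lay below the 9 others, which overlapped each other. The log2 difference of Tapbp with DFO was -0.58 ± 0.10 (SE) in control siRNA cells and 0.01 ± 0.10 in Ncoa4 siRNA cells. Of its transcript windows 18.59% were shared with other annotated transcripts, mainly Gm19412.

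The immunoproteasome subunits Psmb8 and Psmb9 were near the floor of the data. Psmb8 was listed at 0 in the 3 siControl libraries, at 0, 0 and 0.216 FPKM in siNCOA4, at 1.43, 0.731 and 0.516 in siControl+DFO, and at 1.91, 0.761 and 0 in siNCOA4+DFO. It was above 0 in 5 of 6 libraries with DFO and in 1 of 6 without, and no fold is given against groups listed at 0. Psmb9, read from a start 226 bases from that of Tap1 and in the opposite direction, was at 0.989, 1.18 and 0.849 FPKM in siControl, 1.89, 0.779 and 1.42 in siNCOA4, 0, 0.797 and 0.421 in siControl+DFO, and 0.447, 1.66 and 1.62 in siNCOA4+DFO. For Psmb9 the siControl+DFO libraries lay below those of siControl, the reverse of Tap1, and the other groups overlapped siControl. The gene models of Tap1 and Psmb9 overlap on opposite strands, the strand setting of the counting is not given in the sources used here, and 3.44% of the Psmb9 windows match Tap1. Psmb8 shared 9.97% of its windows with Gm20496.

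B2m was the most abundant of the 10 genes and had a narrow range over the groups. It was at 181, 197 and 158 FPKM in siControl, 194, 209 and 193 in siNCOA4, 199, 209 and 205 in siControl+DFO, and 276, 260.5 and 243 in siNCOA4+DFO. The siNCOA4+DFO libraries lay above the 9 others, siControl+DFO lay narrowly above siControl, and siNCOA4 overlapped both. The log2 difference of B2m between siNCOA4+DFO and siControl was 0.54 ± 0.09 (SE), against 0.16 ± 0.09 with Ncoa4 siRNA alone and 0.20 ± 0.09 with DFO alone. None of its windows was shared.

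**Figure D3:**
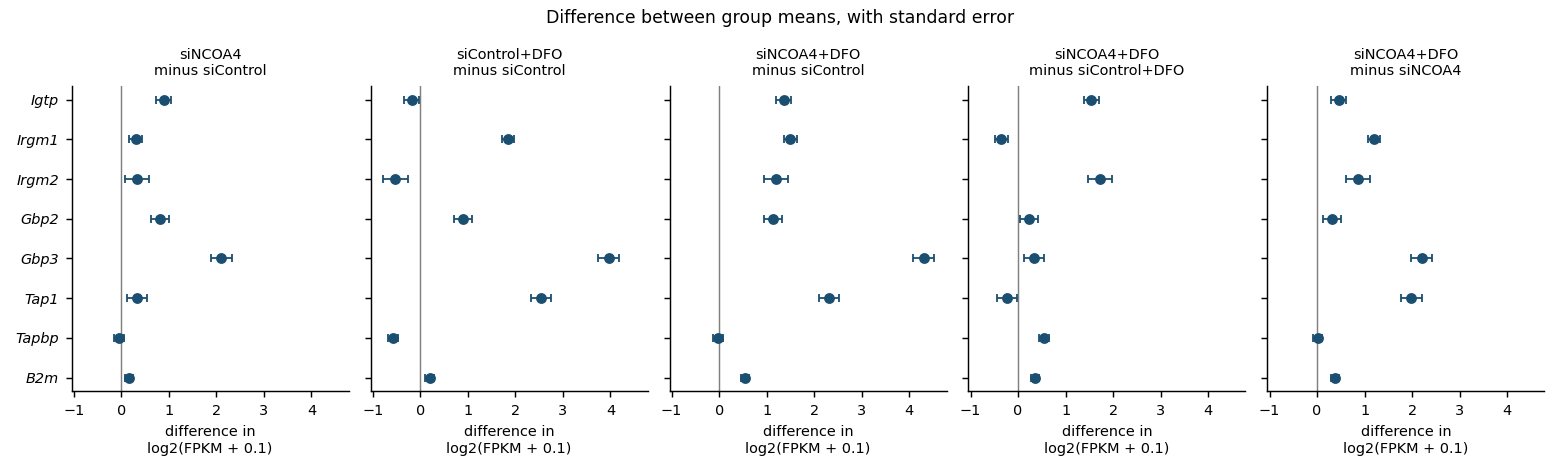
Differences between group means in log2(FPKM + 0.1), with standard errors from the limma fit, for the 8 genes with no library listed at 0, in 5 comparisons. Gbp3 lies furthest from 0 in the 3 comparisons with siControl, and Irgm2 and Igtp in the comparison of the 2 DFO groups.

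Across the set, a gene is said to be called when its limma adjusted p over all 11924 tested genes was below 0.05 and its fold change above 2, and all 10 genes passed the filter on low values, Psmb8 only through the DFO groups, where it is higher. The counts that follow describe genes chosen with these contrasts known, and the comparisons with siControl share the same 3 libraries. Between siNCOA4 and siControl, 1 of the 10 genes (Gbp3) was called, higher, where 0.805% of all genes were called higher, and 4 (Igtp, Irgm1, Gbp2, Gbp3) lay above siControl without overlap, against 14.9%. Between siControl+DFO and siControl, 4 (Gbp3, Tap1, Irgm1, Psmb8) were called higher, against 11.1%, with 6 lying above without overlap, against 31.1%, and 3 below, against 29.6%. Between siNCOA4+DFO and siControl, 7 (the same 4 with Igtp, Irgm2 and Gbp2) were called higher, against 9.24%, and 7 (B2m in place of Psmb8) lay above without overlap, against 28.5%. Between siNCOA4+DFO and siControl+DFO, 2 (Irgm2, Igtp) were called higher, against 1.07%, and 4 (Igtp, Irgm2, Tapbp, B2m) lay above without overlap, against 14.7%. Between siNCOA4+DFO and siNCOA4, 3 (Gbp3, Tap1, Irgm1) were called higher, against 7.59%, and 6 lay above without overlap, against 27.6%. The difference of differences, called at an adjusted p below 0.05 alone, was called for Gbp3, where it was below 0, against 1.43% of all genes. The median log2 difference of the 10 genes was 0.33, 0.55, 1.28, 0.34 and 0.66 in these 5 comparisons, in that order, while the median of all genes ran from -0.01 to 0.01.

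Other genes of the same pathways were taken from 7 lists of 93 genes, 66 of which passed the filter. These lists, too, were drawn up with earlier results known. Over the 66 genes, limma called 2 between siNCOA4 and siControl, 15 between siControl+DFO and siControl (12 higher, 3 lower), 14 between siNCOA4+DFO and siControl (13 higher, 1 lower), 5 between siNCOA4+DFO and siControl+DFO (4 higher, 1 lower) and 7 between siNCOA4+DFO and siNCOA4 (6 higher, 1 lower). As shares these were 3.03%, 22.7%, 21.2%, 7.58% and 10.6%, beside 1.78%, 18.8%, 15.2%, 2.09% and 11.4% of all genes.

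With Ncoa4 siRNA alone, 2 pathway genes rose. Gbp7, another GBP gene, was at 0.378 ± 0.223 FPKM (SD, n = 3) in siControl and 1.16 ± 0.0562 in siNCOA4, a log2 difference of 1.51 ± 0.35 (SE) with a limma adjusted p of 0.0173. Without siNCOA4 replicate 1, 2 or 3 in turn, or with the 2 groups fitted alone (adjusted p = 0.0648), Gbp7 was not called. Tlr3, an endosomal sensor of double-stranded RNA, rose from 1.11 ± 0.256 to 3.23 ± 0.881 FPKM, a log2 difference of 1.44 ± 0.29 (limma adjusted p = 0.00785). No gene of the class I, B2m partner, standard proteasome, interferon gamma or class II lists was called there by limma, with 2 of 13, 0 of 3, 1 of 15, 6 of 15 and 0 of 3 at an unadjusted p below 0.05. At an adjusted p below 0.05 without the fold threshold there were 2, 0, 0, 3 and 0 genes. Ifngr1, a receptor chain for interferon gamma, had a log2 difference of -0.60 ± 0.11 (SE) with an adjusted p of 0.00436, short of the fold threshold, and was chosen here after its values were seen.

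With DFO alone, 6 of 15 genes of the interferon gamma list were called, all higher. Cxcl10, a chemokine that draws T cells, was at 2.94 ± 1.87 FPKM (SD, n = 3) in siControl and 286 ± 43.0 in siControl+DFO, a log2 difference of 6.76 ± 0.37 (SE) with a limma adjusted p of 3.36e-08. Cd274, which encodes the checkpoint ligand PD-L1, rose from 0.431 ± 0.186 to 4.34 ± 1.07 FPKM (log2 difference 3.09 ± 0.29, limma adjusted p = 3.17e-06). Irf2, a factor that binds interferon response elements and can oppose IRF1, rose by 1.84 ± 0.12 on the log2 scale (limma adjusted p = 1.03e-07). The other 3 were Stat2, Irf1 and Socs1, the last of which was not called without siControl+DFO replicate 2 or siControl replicate 3. Ifng itself was listed at 0 in all 12 libraries.

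Other immunity GTPases moved in both directions with DFO, 3 of 9 higher and 2 of 9 lower. Mx2, an antiviral dynamin-like GTPase, was at 0.178 ± 0.155 FPKM (SD, n = 3) in siControl, with 1 library listed at 0, and 11.2 ± 2.17 in siControl+DFO (limma adjusted p = 1.77e-06). Gbp7 rose by 2.21 ± 0.35 on the log2 scale (limma adjusted p = 2.21e-04), while the call of Gbp6 was lost with quantile normalization (adjusted p = 0.376) and without siControl replicate 1 or 3 or siControl+DFO replicate 1 or 2. Ifi47, an IRG gene, was at 1.86, 0.493 and 1.06 FPKM in siControl and was listed at 0 in all 3 siControl+DFO libraries (limma adjusted p = 7.29e-05). Tgtp2, another IRG gene, was at 0.641 ± 0.0371 FPKM in siControl and at 0.115, 0 and 0.312 FPKM in siControl+DFO (limma adjusted p = 0.0134), and was not called without siControl+DFO replicate 2 (adjusted p = 0.0541).

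In the class I list, 1 of 13 genes was called with DFO, while 8 of 13 had an adjusted p below 0.05, in both directions. Psmb10, the third catalytic subunit of the immunoproteasome, fell from 10.2 ± 0.784 FPKM (SD, n = 3) to 3.44 ± 2.03, a log2 difference of -1.74 ± 0.35 (SE) with a limma adjusted p of 0.00133. Short of the fold threshold, H2-D1 had a log2 difference of 0.89 ± 0.12 (SE, limma adjusted p = 6.67e-05). Tap2 had one of -0.77 ± 0.19 (limma adjusted p = 0.00481). H2-D1 and Tap2 were chosen here after their values were seen. The 15 genes of the standard proteasome core gave 0 calls by limma with DFO alone. Without the fold threshold, 9 had an adjusted p below 0.05, and 11 an unadjusted p below 0.05. The median log2 difference of the 15 genes was -0.38. Of 3 tested class II genes, Cd74, the invariant chain, rose from 1.41 ± 0.176 to 3.82 ± 0.354 FPKM (limma adjusted p = 0.00156), and H2-DMa, a peptide exchange factor, rose from 0.469 ± 0.356 to 1.58 ± 0.748 FPKM (limma adjusted p = 0.0244). H2-DMa was not called without siControl replicate 2 or 3 or siControl+DFO replicate 2 (adjusted p = 0.102 for the last). Dhx58, a regulator of cytosolic RNA sensing, was the 1 gene of 8 called in the sensing list (log2 difference 1.25 ± 0.39, limma adjusted p = 0.0178), and was lost without siControl replicate 1 (adjusted p = 0.0743) or siControl+DFO replicate 2.

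**Figure D4:**
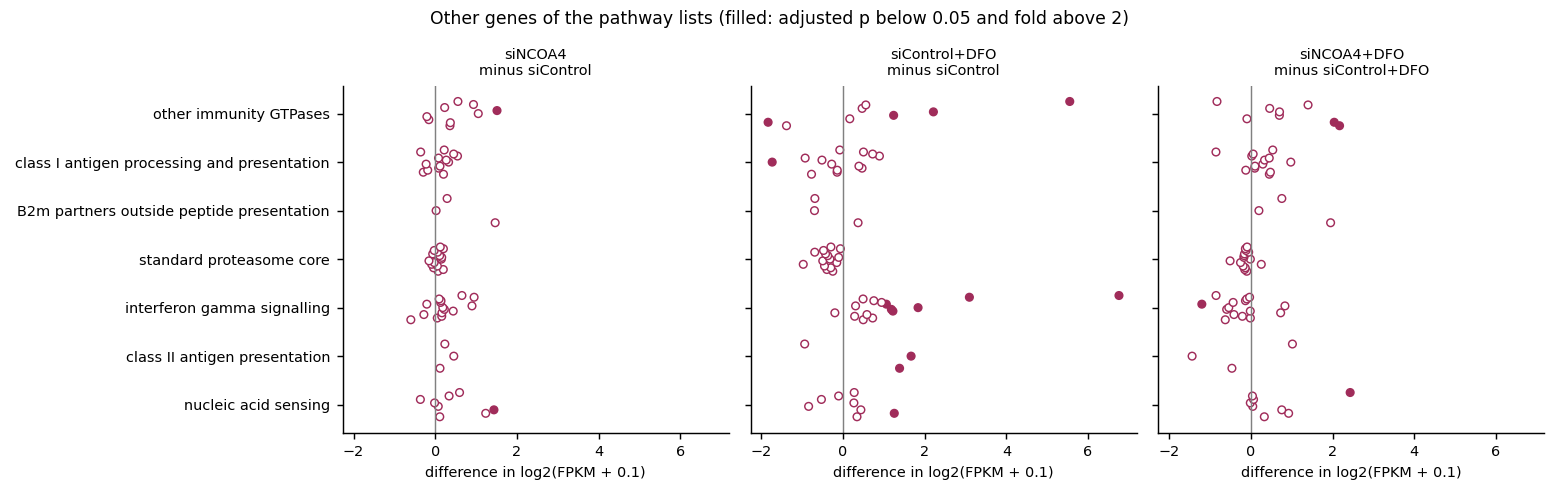
Log2 differences of the tested genes of the 7 pathway lists (rows) in 3 comparisons, with genes called by limma filled and genes with a group listed at 0 in all libraries left out. Called genes are more numerous with DFO alone than with Ncoa4 siRNA alone, and Cxcl10 and Mx2 lie furthest to the right in the comparison with DFO alone.

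Where both treatments were combined, 4 of 9 other GTPases were called higher than siControl. Gbp7 was at 3.21 ± 0.286 FPKM (SD, n = 3), a log2 difference of 2.91 ± 0.35 (SE) with a limma adjusted p of 3.00e-05, and Mx2 at 6.71 ± 3.34 FPKM (limma adjusted p = 8.65e-06). Gbp10 was at 0.973 ± 0.298 FPKM against 0.171 ± 0.0202 (limma adjusted p = 0.00806), a call that was lost with quantile normalization (adjusted p = 0.0745), as was that of Gbp6. Of the interferon gamma list 5 of 15 were called higher, Stat2, Irf9 and the 3 leading ones, with log2 differences of 5.90 ± 0.37 for Cxcl10 (limma adjusted p = 1.68e-07), 3.06 ± 0.29 for Cd274 (4.69e-06) and 1.29 ± 0.12 for Irf2 (2.67e-06). In the sensing list Irf7, Dhx58 and Tlr3 were called higher, with log2 differences of 2.70 ± 0.63, 2.17 ± 0.39 and 1.19 ± 0.29 and limma adjusted p of 0.00344, 6.34e-04 and 0.00479. Irf7, a factor that amplifies interferon production, was at 0, 0.161 and 0.173 FPKM in siControl and 1.09, 1.35 and 1.03 FPKM in siNCOA4+DFO. It passed the filter on low values only through siNCOA4+DFO, as did Gbp6, and Mx2 only through the DFO groups, so these genes were tested because they are high there. Tlr3 was not called without siNCOA4+DFO replicate 3, nor Irf9 without siControl replicate 2. Psma7, a structural subunit of the standard proteasome, fell from 149 ± 24.0 to 73.3 ± 8.02 FPKM (log2 difference -1.01 ± 0.12, limma adjusted p = 2.52e-05), just past the fold threshold, and was not called without siControl replicate 2 or 3 or siNCOA4+DFO replicate 1 or 3. Hfe, an iron regulator that pairs with B2m, was at 0.414, 0 and 0.355 FPKM in siControl and 1.33 ± 0.192 in siNCOA4+DFO (limma adjusted p = 0.0345), and was lost without siControl replicate 2 (adjusted p = 0.143) or any single siNCOA4+DFO library. None of the 13 class I genes or 3 class II genes was called by limma there, with 8 and 1 at an unadjusted p below 0.05. At an adjusted p below 0.05 without the fold threshold there were 5 and 1. In the standard proteasome core there were 13 of 15, with a median log2 difference of -0.54 over the list.

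Between the 2 DFO groups, 3 of 9 other GTPases were called, Ifi47, Iigp1 and Tgtp2, all higher with Ncoa4 siRNA. Among the remaining IRG genes, Igtp and Irgm2 of the set were called higher as well, while Irgm1 and Irgq were not called. Irgm1 had a log2 difference of -0.35 ± 0.13 (SE) and Irgq one of -0.10. Gm12250 and Tgtp1 were too low to be tested and differed in direction. Gm12250 had means of 0.470 FPKM in siControl+DFO and 0.232 in siNCOA4+DFO, and Tgtp1 had means of 0.166 and 0.385. Ifi47 was listed at 0 in all siControl+DFO libraries and was at 1.49, 0.689 and 2.01 FPKM in siNCOA4+DFO (limma adjusted p = 5.63e-04). Iigp1, an effector IRG gene, was at 0.551, 0 and 0.0994 FPKM in siControl+DFO and 1.05, 0.779 and 1.06 in siNCOA4+DFO, a log2 difference of 2.17 ± 0.60 (SE) with a limma adjusted p of 0.0294. Tgtp2 was at 0.551, 0.509 and 1.45 FPKM in siNCOA4+DFO, a log2 difference of 2.04 ± 0.55 (limma adjusted p = 0.0254). The Ifi47 libraries of the 2 groups were separate, as were those of Iigp1 and Tgtp2. The calls of Iigp1 and Tgtp2 were lost without siControl+DFO replicate 2 and when the 2 groups were fitted alone (adjusted p = 0.102 for Tgtp2 in the latter). Iigp1 was also lost without siControl+DFO replicate 3 or any single siNCOA4+DFO library, and Tgtp2 without siControl+DFO replicate 1 or siNCOA4+DFO replicate 3. Both genes were under 1.5 FPKM in every library. Irf7 rose to 1.16 ± 0.169 FPKM (SD, n = 3) from 0.360, 0 and 0.172 FPKM (limma adjusted p = 0.0211, and 0.0922 with a pseudocount of 0.01), and was not called without siControl+DFO replicate 2. Socs1, a feedback inhibitor of JAK signalling, fell from 9.25 ± 1.45 to 4.34 ± 2.10 FPKM (log2 difference -1.20 ± 0.32, limma adjusted p = 0.0232), and was not called without siControl+DFO replicate 1 or 2 or siNCOA4+DFO replicate 3. No class I, B2m partner, standard proteasome or class II gene was called by limma, with 6, 2, 3 and 2 at an unadjusted p below 0.05. At an adjusted p below 0.05 without the fold threshold there were 2, 1, 1 and 0.

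Within Ncoa4 siRNA cells, DFO raised Mx2, Gbp7, Cxcl10, Cd274, Irf2 and Irf7 and lowered Psmb10. The log2 difference was 5.25 ± 0.37 (SE) for Cxcl10 (limma adjusted p = 6.41e-07), 4.16 ± 0.49 for Mx2 (3.25e-05), 2.11 ± 0.29 for Cd274 (1.19e-04), 1.40 ± 0.35 for Gbp7 (0.00708) and 1.11 ± 0.12 for Irf2 (1.27e-05). Irf7 had a difference of 2.11 ± 0.63 (limma adjusted p = 0.0169), which was lost with a pseudocount of 0.01 (adjusted p = 0.170) and without siNCOA4 replicate 1. Irf2 was not called without siNCOA4+DFO replicate 1. Psmb10 fell by 1.09 on the log2 scale (SE 0.35, limma adjusted p = 0.0262), from 12.8 ± 0.903 to 6.05 ± 1.32 FPKM (SD, n = 3), a call that was lost without any single siNCOA4 library or without siNCOA4+DFO replicate 1 or 2. The standard proteasome core gave 0 calls by limma, since no gene passed the fold threshold. All 15 genes had an adjusted p below 0.05, and their median log2 difference was -0.53.

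**Figure D5:**
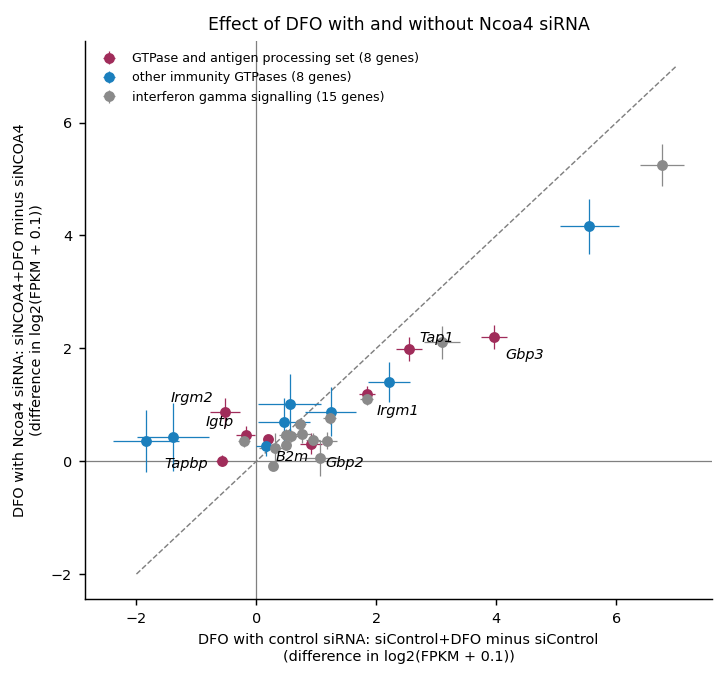
Log2 difference with DFO in control siRNA cells (horizontal axis) against that in Ncoa4 siRNA cells (vertical axis), with standard errors and the line of equality (dashed), for the 8 genes of the set with no library at 0, 8 other immunity GTPases and 15 interferon gamma genes. Gbp3 lies below the line at 3.96 and 2.20, and Irgm2 lies to the left of 0 on the horizontal axis and above it on the vertical axis, at -0.52 and 0.86.

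Whether the effect of Ncoa4 siRNA differed with and without DFO was tested for the 66 pathway genes as an interaction, and limma called 3, beside 2.1% of all genes. Irf2 had an interaction of -0.73 ± 0.16 on the log2 scale (SE, adjusted p = 0.0420) and Jak1, a kinase of interferon receptors, one of -0.37 ± 0.08 (adjusted p = 0.0429). Ifi47 was the third (adjusted p = 0.0284), with a fitted size that depends on the pseudocount because 1 of its 4 groups is listed at 0 throughout. Over other settings and with single libraries left out, Ifi47 kept its call in 10 of 19 fits, Irf2 in 6 of 20 and Jak1 in 5 of 20.

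The genes whose log2(FPKM + 0.1) followed each gene of the set most closely over the 12 libraries, among 10827 other tested genes with a mean of at least 1 FPKM, differed from gene to gene. Parp9 was 1 of the 2 for Irgm2 (Pearson's r = 0.92). For Igtp they were Mlec (0.94) and Cndp2 (0.93), and for B2m Spns1 (0.94) and Gxylt1 (0.93). For Irgm1 they were Gtse1 (1.00) and Gars (0.99), for Tap1 Slc12a4 (0.99) and Col2a1 (0.99), and for Gbp3 Fbxo33 (0.99) and 9030617O03Rik (0.99). For Gbp2 they were Spc25 (0.96) and Lmln (0.94), for Tapbp Pde5a (0.95) and Col4a5 (0.94), for Psmb8 Pnp (0.95) and Triap1 (0.95), and for Psmb9 Itgb1bp2 (0.93) and Rbm45 (0.91). The 12 points are 4 groups of 3, so a high r mostly says that 2 genes order the groups alike, and no test is attached.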

How the data were processed

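Gene-level FPKM were deposited by the authors, 1 table for each of 12 HT22 libraries made with a stranded total RNA kit. The submitters' processing notes name FastQC, Trimmomatic 0.33, HISAT2 2.1.0, featureCounts, edgeR and mm10, without roles, and the tool that computed FPKM is not given in the sources used here. Groups came from the labels, which state biological replicates. Each table held 24347 entries, of which 4 with repeated names were left out and 6929 were at 0 in all libraries. Differences were computed from log2(FPKM + 0.1) for the 11924 genes with at least 0.5 FPKM in at least 3 libraries, with limma 3.58.1 in R 4.3.3 (a trend in the prior variance, all 12 libraries in 1 fit, two-sided, Benjamini-Hochberg over all tested genes). The pseudocount understates fold changes of low genes. A count model was not used because the files hold no counts. Calls needed an adjusted p below 0.05 and a fold above 2, or the former alone for the interaction. The 10 genes and the pathway lists were chosen with earlier results of these data known. Named were all 10 genes, in each list the 3 largest differences among genes called in each comparison, genes called in the interaction, and the 2 closest genes in pattern, 1 of which is not reported here. The fit was tested on simulated data with 200 of 11924 genes changed: 92.5% of them were found for Ncoa4 siRNA alone, 92% for DFO alone and 82% for the difference of differences, and 2 of 187, 6 of 190 and 4 of 168 calls were false. The changed genes were drawn from those with a siControl mean of log2(FPKM + 0.1) above 0. All changes were larger than the fold threshold, and the noise was normal and independent between genes. Genes near the floor or listed at 0 in siControl were never changed. Their recovery, and that of changes near 2-fold, was therefore not tested, and false calls were not counted separately for them. The FPKM give no counting interval, and depth was compared only as a ratio. No 2 libraries were identical. Gene models were those of GENCODE for GRCm38 and promoters those of RefSeq. Shared windows are stretches of 75 bases of a gene's transcripts that also occur in those of another gene. Alternatives were pseudocounts of 1 and 0.01, no filter and a filter of 2 FPKM, median-of-ratios scaling and quantile normalization, the replicate number as a block, no trend, the compared groups alone, no fold threshold, and each library left out. Figures were drawn with Python 3.11.15 and matplotlib 3.10.9.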

Additional observations from a re-analysis of the deposited data

Results flagged for a closer look

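Irgm2 was flagged because DFO went with lower values in control siRNA cells and higher values in Ncoa4 siRNA cells, in every library of each. Its difference of differences was 1.39 ± 0.36 (SE) on the log2(FPKM + 0.1) scale, which did not pass an adjusted p below 0.05 in limma's fit over all genes. The opposite direction in the 2 siRNA groups was not tested in any other way, and Irgm2 was chosen with its values known.

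For 3 pathway genes the effect of Ncoa4 siRNA differed with and without DFO by limma's interaction term. The fitted interaction was 3.42 on the log2 scale for Ifi47 (adjusted p = 0.0284, and 0.00420 to 0.129 over the alternatives), a size that depends on the pseudocount because siControl+DFO is listed at 0. It was -0.73 for Irf2 (adjusted p = 0.0420, and 0.0132 to 0.0977) and -0.37 for Jak1 (adjusted p = 0.0429, and 0.0406 to 0.144).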

How the results depend on the processing

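Differences of the 10 genes moved by less than 1 SD of the libraries in 435 of 458 cases with another setting. With 1 library left out they did so in all 720 cases. Leaving out 1 of 3 libraries cannot move a group mean by 1 SD of its group, whatever the values. Some of these cases also left out a library outside the compared groups. How far the differences depend on single libraries was therefore not tested by this limit. No called difference changed sign in either kind of case. The 12 sign changes were all in Tapbp, Psmb9 and Psmb8. For Psmb8 between the DFO groups the fitted value went from -0.73 to 0.51 without siNCOA4+DFO replicate 3, where it is listed at 0. With an adjusted p below 0.05 and no fold threshold, limma called 1399, 6365, 5819, 1963 and 5095 genes in the 5 comparisons (siNCOA4 and siControl+DFO and siNCOA4+DFO against siControl, then siNCOA4+DFO against siControl+DFO and against siNCOA4), in place of 212, 2244, 1809, 249 and 1362, and 7, 43, 42, 18 and 40 pathway genes in place of 2, 15, 14, 5 and 7. A pseudocount of 1, which shrinks low genes by construction, gave 112 genes for siNCOA4 and 129 between the DFO groups, and 0 (13 at an unadjusted p below 0.05 by limma), 8, 2 and 4 pathway genes for siNCOA4, for both treatments, between the DFO groups and within Ncoa4 siRNA cells. Between the DFO groups the filter of 2 FPKM, which leaves fewer genes, gave 1 pathway gene. The compared groups alone gave 2 there and 1 for siNCOA4, and no separate interaction, which uses all groups. For the interaction, quantile normalization gave 165 and no trend 164 genes in place of 250, with 1 pathway gene each in place of 3. The cause of these moves was otherwise not tested.

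With 1 library left out, the pathway genes called were 1 to 3 for siNCOA4 (1 without each siNCOA4 replicate in turn), 1 to 6 between the DFO groups (3, 1, 3, 3 and 2 without siControl+DFO replicate 1 or 2 and siNCOA4+DFO replicate 1, 2 or 3) and 4 to 8 within Ncoa4 siRNA cells (4 without siNCOA4+DFO replicate 1). The interaction gave 76 to 292 genes (76 without siControl+DFO replicate 1, 98 to 149 without siControl replicate 2 or 3, any single siNCOA4 replicate, siControl+DFO replicate 2 or siNCOA4+DFO replicate 2) and 0 to 2 pathway genes. It gave 0 (15 to 19 at an unadjusted p below 0.05 by limma) without siControl replicate 1 or 3, any single siNCOA4 replicate, or siControl+DFO replicate 1 or 2, and 1 without siControl+DFO replicate 3 or siNCOA4+DFO replicate 2 or 3.

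No pairing of libraries by replicate number was detected: 2 of 18 same-numbered pairs had a correlation of deviations over 0.1, and 2 of 12 libraries correlated best with their own number. With 3 libraries in a group, this check cannot exclude a small shared effect. With the number as a block, the interaction called 171 genes and 1 pathway gene, and the other counts stayed within 1.5 times.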
